A study of Homo sapiens with 4 samples.

Results

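The core microRNA machinery was read through 10 genes: the Argonaute genes AGO1, AGO2 and AGO3, the scaffold genes TNRC6A, TNRC6B and TNRC6C, and the processing genes DROSHA, DGCR8, XPO5 and DICER1. Their probes were taken by annotated gene symbol, and a probe was kept when its detection p, a measure against the array's background, was under 0.01 on at least 2 of 4 arrays. This left 10 of the 21 probes of these genes, out of 16561 kept among 47320 in all. The 10 kept probes covered 9 of the 10 genes, and TNRC6C had none.

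The cells were A549, an established human line of lung adenocarcinoma. They were transfected by Lipofectamine RNAiMAX either with a negative control mimic or with a mimic of miR-509-3p, and total RNA was taken 24 hours later. Each group held 2 Illumina bead arrays, and both groups had received a synthetic mimic, so no untransfected cells enter any comparison. The labels do not say whether the 2 arrays of a group came from separate cultures, so p-values speak only of array-to-array spread here, and that spread may be technical.

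A microRNA is cut from its transcript in successive steps before it acts. In the nucleus the Microprocessor, made of the nuclease DROSHA and its RNA-binding partner DGCR8, frees a hairpin, which exportin-5 (XPO5) carries to the cytoplasm. There DICER1 removes the loop, and an Argonaute protein keeps 1 strand of the duplex as its guide. A TNRC6 protein then binds the Argonaute and brings deadenylases to the paired mRNA, which leads to decapping and decay. Synthetic mimics are short duplexes that enter this route at the Argonaute step, after the cuts by DROSHA and DICER1.

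The guide strand that the transfection was meant to supply is shown as RefSeq lists it, together with 1 of its hairpins, because the hairpin carries both cutting steps. The labels do not give the sequence of the mimic itself. In the mature miRNA the capitals mark the seed, bases 2 to 8, and in the hairpin they mark the 2 mature arms, between which lies the loop that DICER1 removes.
hsa-miR-509-3p: uGAUUGGUacgucuguggguag
MIR509-1 hairpin: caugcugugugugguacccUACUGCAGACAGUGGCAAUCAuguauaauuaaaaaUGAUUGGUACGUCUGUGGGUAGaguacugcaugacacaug
The same mature sequence of 22 bases comes from 3 genes on the minus strand of chromosome X (GRCh38.p14), of which MIR509-1 places it at chrX:147260550-147260571. Among 2370 mature names in that table, miR-509-3p is the only one, counting itself, with these bases 2 to 8. Seed matches in the mRNAs of the 10 genes were not analysed here, since no transcript sequence was used.

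The arrays were close in quality. The median probe signal lay between 202 and 207, and between 33.7% and 34.7% of probes were detected on each. Normalized log2 values of the kept probes correlated at 0.993 within the control group, 0.995 within the mimic group and 0.970 to 0.972 across groups, over probes, which are not independent replicates. Of 6 epithelial markers of A549, 5 had a kept probe (KRT18 did not), and KRT7, at -0.91 ± 0.09, and CDH1, at -0.29 ± 0.07 (log2 difference, mimic minus control, ± SE), were lower with the mimic, where 15.8% of all genes were lower. KRT8, at -0.31 ± 0.10, KRT19, at 0.19 ± 0.08, and EPCAM, at 0.01 ± 0.09, did not pass. The summed normalized signal of all probes of this list was 51797 to 55014 on the control arrays and 40783 to 41483 on the mimic arrays. KRT8 and KRT7 were its brightest kept genes, at mean log2 signals of 14.71 and 13.25, and weigh most in that sum. None of 5 markers of alveolar type II cells was detected. Of 16 markers of fibroblasts, endothelium and leukocytes, 2 were kept. One was COL1A1, at 0.01 ± 0.07. The other, the leukocyte marker CD14, rose by 0.45 ± 0.10 on its brighter probe and did not pass on its second, at 0.35 ± 0.19. PTPRC, CD3E and CSF1R were not detected on any array. The summed normalized signal of the leukocyte list was 2322 to 2655 on the control arrays and 3235 to 3268 on the mimic arrays. That sum includes undetected probes, and CD14 was its only kept gene, so it is not a reading apart from CD14. The part of these markers in any result was not tested.

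Setting mimic against control asks how the machinery that carries out silencing stood in cells given the miR-509-3p mimic rather than a control mimic. With miR-509-3p, AGO1, DICER1 and XPO5 were lower, by 1.25-fold to 1.34-fold, and DROSHA was higher by 1.38-fold. AGO2, AGO3, TNRC6A, TNRC6B and DGCR8 did not pass the test. In RNA from whole cultures, fewer cells of a type and less RNA per cell cannot be told apart. The threshold was 0.05 for limma p-values, adjusted by the Benjamini-Hochberg method over the 16561 kept probes. By it, 4 of the 10 kept probes were lower, 1 was higher and 5 did not pass. Over all kept probes, 14.5% were lower and 15.2% higher, 29.7% together. The median log2 difference, mimic minus control, was -0.27 over the 10 probes and 0.03 over all kept probes, and the median of the absolute difference was 0.32 against 0.25. These counts and medians hold DICER1 by 2 probes. With each gene read by its brightest kept probe, 3 of 9 were lower and 1 higher, beside 15.8% and 17.1% of all genes. The median was then -0.22, against 0.04 over all genes. The 2 groups did not overlap for 8 of the 10 probes, nor for 68.6% of all kept probes.

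**Figure D1:**
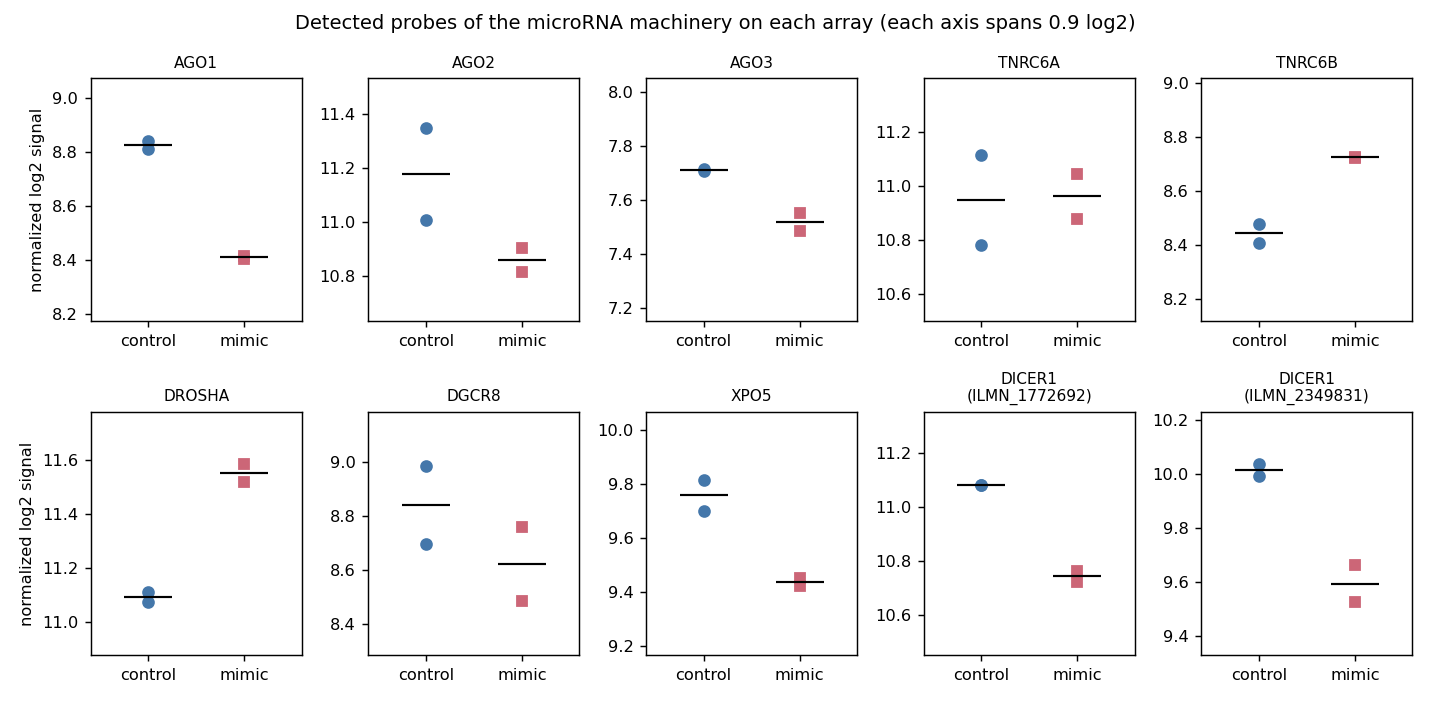
Normalized log2 signal (vertical axis) of the 10 kept probes on the 2 control arrays (circles) and the 2 mimic arrays (squares), with a line at each group's mean and a vertical span of 0.9 in every panel. AGO1, XPO5 and both DICER1 probes sit lower with the mimic, DROSHA sits higher, and the groups overlap for TNRC6A and DGCR8.

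None of these 5 calls held when any 1 of the 4 arrays was left out. The arrays were left out 1 at a time, in the order control 1, control 2, mimic 1 and mimic 2. The direction of the 5 called probes could not change in these fits, since their groups did not overlap. The background fell too, to 18.8%, 17.2%, 5.65% and 6.21% of all kept probes. With all 4 arrays but no probe filter the 5 calls were lost as well: the limma adjusted p was 0.100 for DROSHA, 0.115 for AGO1, 0.208 for XPO5, and 0.169 and 0.138 for the DICER1 probes ILMN_1772692 and ILMN_2349831. A fit of 3 arrays leaves 1 array alone in its group, whose spread is then assumed from the other group.

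The Argonautes hold the guide strand and pair it with the mRNA. AGO1 read 8.81 and 8.84 on the control arrays and 8.40 and 8.41 on the mimic arrays, in normalized log2 signal. Both mimic arrays were below both control arrays, and the arrays of each group lay close together. AGO1 fell by 0.42 ± 0.07 in log2 units (± SE, 2 arrays each), which is 1.33-fold lower, with a limma adjusted p of 0.0203. Leaving out 1 array at a time gave limma adjusted p-values of 0.0615 without control 1, 0.0711 without control 2, 0.109 without mimic 1 and 0.104 without mimic 2, with differences between -0.43 and -0.40.

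AGO2 is the Argonaute that can itself cut a fully paired target. Its probe read 11.35 and 11.01 on the control arrays and 10.82 and 10.90 on the mimic arrays. Control 1 was the high array, and control 2 lay only just above the mimic arrays, so the 2 control arrays were farther from each other than control 2 was from either mimic array. The log2 difference was -0.32 ± 0.14, with a 95% interval from -0.69 to 0.05 and a limma adjusted p of 0.156. It ranged from -0.49 to -0.15 when 1 array was left out, and it passed at 0.0409 under limma with a trended and robust variance. AGO3 read 7.71 on both control arrays and 7.55 and 7.49 on the mimic arrays. These levels were without overlap, but the log2 difference of -0.19 ± 0.08 did not pass (95% interval -0.39 to 0.01, limma adjusted p = 0.129). AGO1 and AGO3 are neighbours: in the GRCh38.p14 gene table AGO4, AGO1 and AGO3 follow each other as coding genes on chromosome 1. AGO4, which was not among the 10 genes, had no kept probe.

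The TNRC6 proteins link the Argonaute to the deadenylases. TNRC6B read 8.48 and 8.41 on the control arrays and 8.72 and 8.73 on the mimic arrays. Both mimic arrays were above both controls. The log2 difference was 0.28 ± 0.08, with a 95% interval from 0.08 to 0.49, and the limma adjusted p of 0.0559 missed the threshold. With the same difference it passed where fewer probes were fitted, at 0.0403 with probes detected on all 4 arrays and at 0.0370 with 1 probe a gene. It missed the threshold with median scaling, at 0.211, with a trended and robust variance, at 0.0918, and with 1 array left out, at 0.101 to 0.193. TNRC6A read 11.12 and 10.78 on the control arrays and 10.88 and 11.05 on the mimic arrays. Its groups overlapped, and the log2 difference was 0.01 ± 0.14 (95% interval -0.37 to 0.40, limma adjusted p = 0.951), turning to -0.050 with median scaling. That interval includes falls of the size called for XPO5 and for the first DICER1 probe, so a fall of that size is not excluded.

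**Figure D2:**
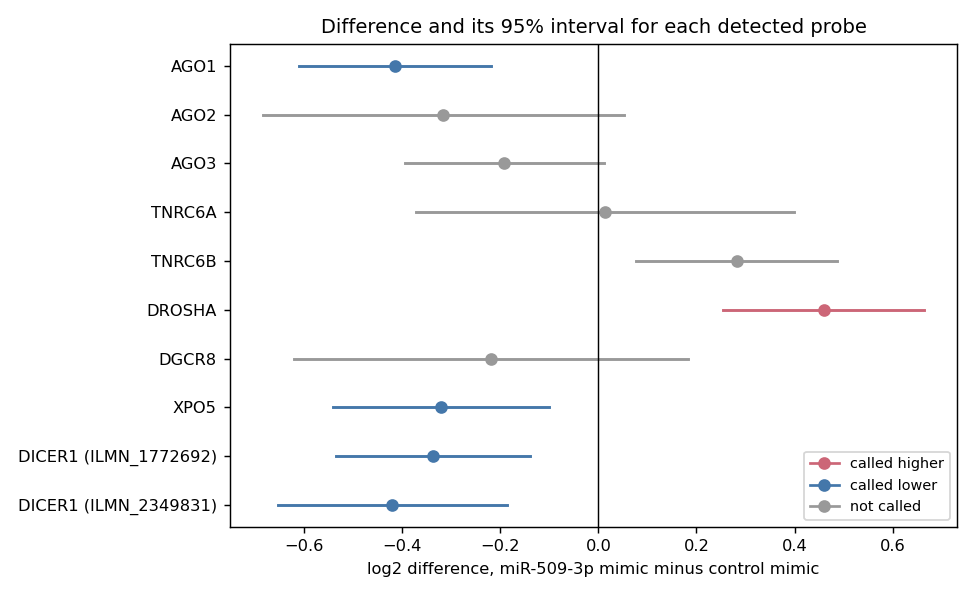
Log2 difference, mimic minus control (horizontal axis), of the 10 kept probes, with points at the estimate and lines for its 95% interval from limma. The 4 probes called lower lie between -0.42 and -0.32 and DROSHA at 0.46, while the intervals of AGO2, AGO3, TNRC6A and DGCR8 cross 0 and that of TNRC6B, which did not pass after adjustment, does not.

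The Microprocessor was read by 1 probe for each of its genes. DROSHA, the nuclease, read 11.07 and 11.11 on the control arrays and 11.52 and 11.58 on the mimic arrays. Both mimic arrays were above both controls. DROSHA rose by 0.46 ± 0.08 on the log2 scale, 1.38-fold, with a limma adjusted p of 0.0175. Leaving out 1 array at a time gave limma adjusted p-values of 0.0632 without control 1, 0.0570 without control 2, 0.0849 without mimic 1 and 0.102 without mimic 2, and median scaling gave 0.39 with an adjusted p of 0.0625. DGCR8, the partner that binds the hairpin, read 8.70 and 8.98 on the control arrays and 8.76 and 8.49 on the mimic arrays. Its groups overlapped, and the log2 difference of -0.22 ± 0.15 did not pass (95% interval -0.62 to 0.18, limma adjusted p = 0.333). It was -0.36 without control 1 or mimic 1, -0.075 without control 2 and -0.082 without mimic 2. Whether the difference of DROSHA differs from that of DGCR8 was not tested.

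XPO5, which exports the hairpin, read 9.81 and 9.70 on the control arrays and 9.42 and 9.45 on the mimic arrays. Both mimic arrays were below both controls. XPO5 fell by 0.32 ± 0.08 on the log2 scale, 1.25-fold, and its limma adjusted p of 0.0489 lay just under the threshold. Without control 1, control 2, mimic 1 and mimic 2 the limma adjusted p was 0.140, 0.0804, 0.191 and 0.164. The call was also lost with median scaling, at a limma adjusted p of 0.0755, and with a looser detection limit of 0.05, at 0.0706.

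DICER1, which cuts the loop, was the only one of the 10 genes with 2 kept probes. Probe ILMN_1772692 read 11.08 on both control arrays and 10.76 and 10.72 on the mimic arrays. Probe ILMN_2349831 read 9.99 and 10.04 on the control arrays and 9.52 and 9.66 on the mimic arrays. On both probes each mimic array was below each control array. The first fell by 0.34 ± 0.07 on the log2 scale, 1.26-fold, and the second by 0.42 ± 0.09, 1.34-fold, with limma adjusted p-values of 0.0332 and 0.0292. Both probes read the same cells and arrays, so they are 2 readings of 1 gene and not 2 replicates. Without control 1, control 2, mimic 1 and mimic 2 the limma adjusted p of the first was 0.0931, 0.0981, 0.130 and 0.151, and that of the second was 0.0789, 0.0977, 0.136 and 0.0850. With median scaling the first missed the threshold at 0.0512 and the second passed at 0.0366, and at a detection limit of 0.05 the first missed it at 0.0507 and the second passed at 0.0443.

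**Figure D3:**
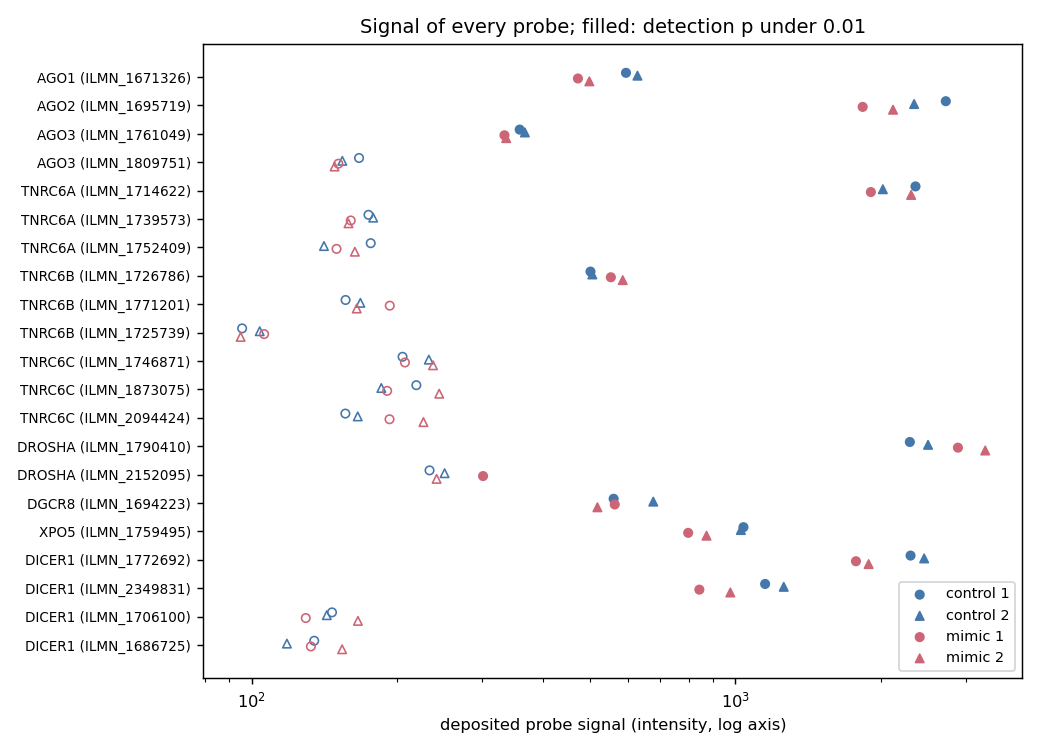
Deposited signal (horizontal log axis, intensity units) of all 21 probes of the 10 genes on each array, filled where the detection p was under 0.01. The 10 kept probes are filled on all 4 arrays, whereas the 3 TNRC6C probes are open throughout and 1 DROSHA probe is filled on mimic 1 alone.

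The other 11 probes of the 10 genes failed the detection rule. They belonged to 6 genes, namely AGO3, TNRC6A, TNRC6B, TNRC6C, DROSHA and DICER1, and their deposited signals lay between 94.9 and 301. No array detected 10 of them, so for AGO3, TNRC6A, TNRC6B and DICER1 at least 1 probe was undetected while another probe of the same gene was detected on all 4 arrays. TNRC6C, the third TNRC6 gene, was undetected by each of its 3 probes, with signals from 156 to 244. This says that its level was not well above background here, not that the transcript is missing. The probes nearest the detection limit were, inside it, the AGO3 probe with signals of 358 and 367 on the control arrays and 333 and 336 on the mimic arrays, and, outside it, the second DROSHA probe with 233 and 251 on the control arrays and 301 and 241 on the mimic arrays. That DROSHA probe was detected on mimic 1 alone, so it gives no second reading of the rise.

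**Figure D4:**
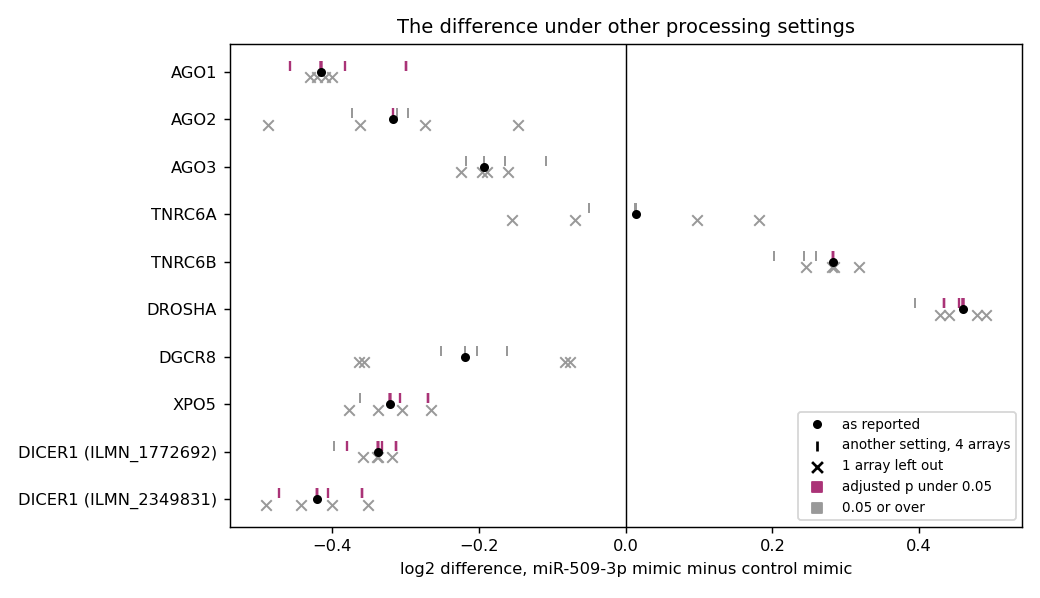
Log2 difference, mimic minus control (horizontal axis), of the 10 kept probes as reported (black points), under other settings with all 4 arrays (bars) and with 1 array left out (crosses), coloured by whether the limma adjusted p was under 0.05. Every cross is grey, the sign of TNRC6A changes, and the other probes keep their sign; marks at equal values lie over each other.

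The genes around this core were read from 3 lists, each gene by its brightest kept probe. By that reading 1748 of 10239 genes were higher and 1622 lower, 17.1% and 15.8%, or 32.9% together, with a median log2 difference of 0.04. Of 24 cofactors of biogenesis, 23 had a kept probe, 1 was higher, 1 was lower and 21 did not pass, with a median of -0.03. ADARB1, an enzyme that edits adenosines in double-stranded RNA, read 8.44 and 8.23 on the control arrays and was not detected on either mimic array. It was at least 3.00-fold lower there with background correction (limma adjusted p = 0.00239). Its measured log2 difference of -2.16 became -1.16 without background correction, a fall smaller than the stated bound. LIN28B, which binds let-7 precursors and blocks their processing, read 9.76 and 9.85 on the control arrays and 10.65 and 10.77 on the mimic arrays. LIN28B rose by 0.91 ± 0.09 on the log2 scale, 1.87-fold, with a limma adjusted p of 0.00562, or 0.0509 without mimic 2. TARBP2 and PRKRA, partners of DICER1 that were singled out after their values were seen, did not pass, at -0.13 ± 0.07 and 0.04 ± 0.11. The second kept probe of TARBP2, at -0.16, did not pass either.

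Of 25 genes that load, move or partner the Argonautes, 19 had a kept probe, 2 were higher, 1 was lower and 16 did not pass, with a median of -0.10. WTIP, a LIM-domain protein of the same family as LIMD1 and AJUBA, read 8.75 and 8.48 on the control arrays and 7.58 and 7.40 on the mimic arrays. WTIP fell by 1.12 ± 0.13 on the log2 scale (limma adjusted p = 0.00816), or 0.72 without background correction. The limma adjusted p was 0.0534 without mimic 1 and 0.0600 without mimic 2, and its second kept probe, at -0.39 ± 0.14, did not pass. P4HA1, a subunit of the prolyl hydroxylase that modifies AGO2, rose by 0.45 ± 0.08, and IPO8, an import receptor that binds Argonautes, rose by 0.36 ± 0.09, with limma adjusted p-values of 0.0196 and 0.0466. Neither call held when any 1 array was left out, with limma adjusted p-values of 0.0648 to 0.108 for P4HA1 and 0.0743 to 0.194 for IPO8. IPO8 also missed the threshold with median scaling, as did P4HA1, at 0.130 and 0.0650.

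Of 28 genes that shorten the poly(A) tail, remove the cap or degrade the mRNA, 26 had a kept probe, 8 were higher, 4 were lower and 14 did not pass, with a median of 0.13. Of the named genes, DCP2, the decapping enzyme, read 9.82 and 9.53 on the control arrays and 11.63 and 11.78 on the mimic arrays, while DCP1A, its activator, read 8.90 and 8.81 on the control arrays and 7.52 and 7.87 on the mimic arrays. DCP1A fell by 1.16 ± 0.14 on the log2 scale, or 0.77 without background correction. PATL1, a scaffold of decapping, read 11.49 and 11.63 on the control arrays and 10.49 and 10.61 on the mimic arrays. PATL1 fell by 1.01 ± 0.09 on the log2 scale (limma adjusted p = 0.00521, or 0.0509 without mimic 1). EDC3, an enhancer of decapping, read 6.92 and 7.25 on the control arrays and 7.85 and 8.20 on the mimic arrays. EDC3 rose by 0.94 ± 0.18 (limma adjusted p = 0.0228), or 0.52 without background correction, and missed the threshold without control 1, mimic 1 and mimic 2, at 0.0701, 0.0658 and 0.102.

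**Figure D5:**
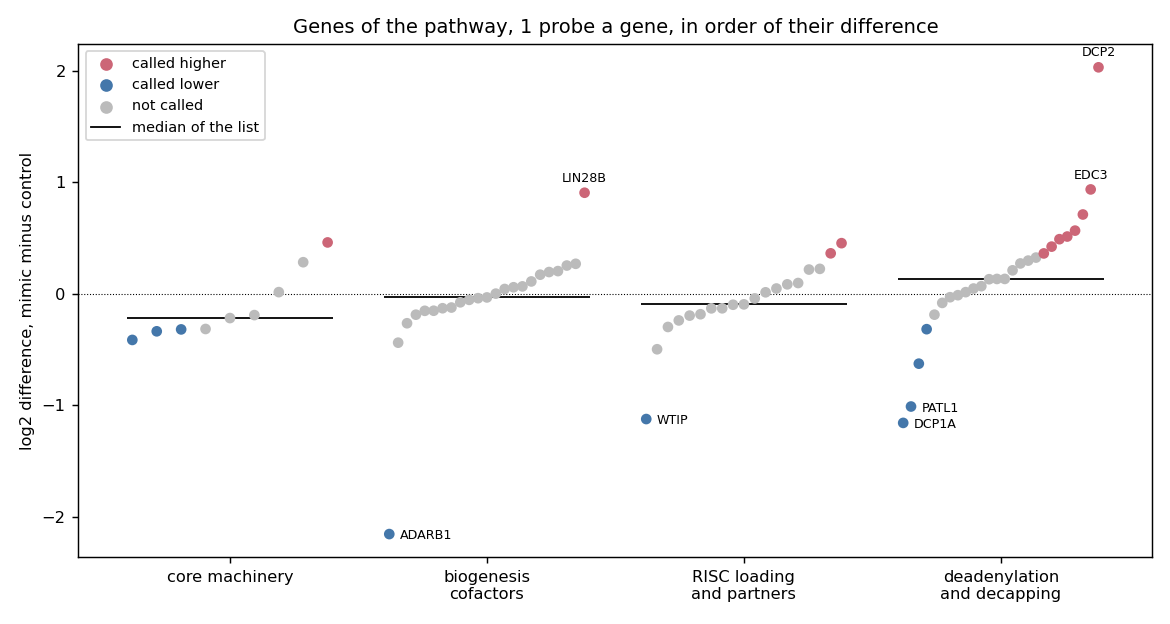
Log2 difference, mimic minus control (vertical axis), of each measured gene of the core machinery and of 3 surrounding lists, in order of size, coloured by call, with a line at each list's median. The core lies between -0.42 and 0.46, whereas ADARB1 (-2.16, undetected with the mimic) and DCP2 (2.03) lie farthest from 0.

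Across the 3 lists, 11 of 68 measured genes were higher and 6 were lower, beside 17.1% and 15.8% of all genes. With control 1 left out 6 were higher and 4 lower, and with control 2 left out 5 and 6. Leaving out mimic 1 gave 2 and 2, and leaving out mimic 2 gave 1 and 3. No list was compared with the other genes by a test.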

How the data were processed

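Total RNA of 4 samples, 2 per group, was amplified to biotinylated cRNA for the arrays, according to the labels. The authors deposited linear probe intensity before normalization, and beside it a detection p-value. The submitters' processing notes name GenomeStudio 2009.2. The authors also deposited processed log2 values for 19069 probes, whose median was 9.42 on each array. No source used here states how these were made, but they closely match quantile normalization of the signals without background correction. Their probes were exactly those passing the looser detection limit of 0.05. Once sorted, the values lay within 0.003 of the log2 mean of the sorted signals. The log2 differences of AGO1 and DROSHA were -0.30 and 0.43 both with these values and without background correction. Centred by probe, they correlated at 0.979 or more with the log2 signals of the same array.

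Normalization used limma (version 3.58.1, R 4.3.3), by neqc (normexp on the detection p-values, offset 16, quantile normalization, log2), then lmFit and eBayes on the 16561 kept probes, without covariates, with Benjamini-Hochberg adjustment over those probes and calls at an adjusted p under 0.05. The fit had 2 residual and 2.48 prior degrees of freedom. An interval is limma's 95% interval. A level below the detection limit on both arrays of a group is a bound, taken per array as the larger of the probe's value and the lowest signal among detected probes. Probes were named through the platform annotation (1 gene for 30113 probes, several for 8, none for 17199), with symbols updated through the GRCh38.p14 gene table for 30074. The array files name no genome build, so no coordinates are given for the measured genes, and those of the miRNA are RefSeq's own. With 2 arrays a group, precision is limited by their number.

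The genes and lists were chosen with earlier results of these data known. The text names each of the 10 genes and up to 4 called genes per list with the largest difference. In a test on simulated data for this comparison (16561 probes), the fit called 10 of 67 probes at a simulated log2 change of 0.5. It called 61 of 67 at a change of 1, 66 of 66 at 2, and 19 of 16361 without one. There 16361 probes had no change, whereas 4924 of 16561 were called in the data. Adjustment was therefore stricter in the simulation, so its shares are not those the fit would call in these data. No batch was tested, since slide and scan date were not recorded in what was used here. The alternatives were other background, scaling, filter, variance and probe choices, the authors' values, a replicate block and leaving out each array. Figures were drawn with matplotlib 3.10.9.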

Additional observations from a re-analysis of the deposited data

How the results depend on the processing

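For the 10 probes of the core machinery, 116 of 157 alternative values kept their direction and their side of the threshold, 34 lost the call and 4 gained it. The direction changed in 3, all of TNRC6A, at -0.050 with median scaling and between -0.15 and 0.18 when 1 array was left out. No log2 difference of the 10 probes is a bound or changes with the detection filter, since each was detected on all 4 arrays. Their adjusted p-values do change with that filter. For XPO5 the limma adjusted p was 0.0489 as reported and 0.0706 at a detection limit of 0.05. The test on simulated data changed few probes, so it does not say what share of changes of this size the fit would call here.

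With 1 array left out, the counts of called member probes were 0 higher and 0 lower in limma, of all kept probes 935 to 3108 against 4924, and of list genes 1 to 6 higher and 2 to 6 lower. Median scaling gave 0 member probes higher and 2 lower (1 and 5 at an unadjusted limma p under 0.05) and 6 list genes higher. A detection limit of 0.05 gave 2 lower. Without a probe filter 0 and 0 members passed in limma (3 and 4 unadjusted), as did 1479 of 47320 probes and 2 list genes higher. There were 2 members higher with probes detected on 4 arrays, with the brightest probe per gene and with the mean of the probes. Without background correction, and with the authors' values, 10 list genes were lower. These 2 settings gave nearly the same values, so they are not separate checks, though both are counted among the alternatives. A trended and robust variance gave 18 higher and 13 lower list genes. The cause was not tested, except that fewer arrays or more probes enter some of these fits.

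The replicate numbers do not pair the arrays by any label, and the deviations of equal numbers correlated at -0.05. With the replicate block, 0 member probes were lower in limma, at adjusted p-values of 0.0509 for AGO1, 0.0947 for XPO5 and 0.0745 and 0.0536 for DICER1. In the same limma fit TNRC6B had an adjusted p of 0.107, and DROSHA stayed higher at 0.0432. All probes called were 3620, and 7 list genes were higher. Adjusting the same fit over genes, an alternative chosen after seeing the data, called 3 of the 9 measured core genes lower and 1 higher. By it, 34.4% of all genes were called.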

Other observations

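The array also carried probes for microRNA genes and their host transcripts. Of 578 genes whose name starts with MIR and a number, a set chosen after the data were seen, 12 had a kept probe. Of these, 2 were lower in limma and 10 did not pass, beside 15.8% of all genes lower, so the count of lower genes is near the background.

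Both lower genes are long noncoding hosts of let-7, miR-100 or miR-99 family members and miR-125b. MIR100HG read 8.69 and 8.58 on the control arrays and 7.83 and 7.56 on the mimic arrays. It fell by 0.94 ± 0.12 on the log2 scale, 1.92-fold, with a limma adjusted p of 0.00958, or 0.0533 without mimic 2. Its difference was -0.62 without background correction. The authors' values gave -0.62 too, but they are nearly the same values and not a separate check. MIR99AHG had a mean of 7.02 ± 0.03 (SD, n = 2) on the control arrays and was not detected on either mimic array, where it was at least 1.21-fold lower (limma adjusted p = 0.0186). Its call was lost when any 1 array was left out, at limma adjusted p-values of 0.0577 to 0.102, and in 4 of 11 alternatives with all arrays. Without background correction its difference was -0.20 (limma adjusted p = 0.0625), against -0.43 as reported, a fall smaller than the stated bound. That setting and the authors' values, which are nearly the same, are both among those 4 alternatives.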
